A study of Mus musculus with 7 samples.

Results

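The genes of 4 axon guidance systems were examined in macrophages sorted from the injured nerve. They were taken from the gene table by symbol: semaphorins of classes 3 to 7, plexins, ephrins, Eph receptors, Slits, Robo receptors, netrins and Unc5 receptors. The rule found 66 of the 23361 genes, 35 that encode ligands and 31 that encode receptors. It used symbols alone and no expression value.

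The mice were BALB/cJ, inbred and wild type, and had the left sciatic nerve transected and repaired with an inert, empty conduit. Macrophages sorted from inside it, gated as negative for lineage markers (Lin-) and positive for CD11b, CD14, F4/80 and CD16/32, were profiled by RNASeq 5 days (n = 3 libraries), 14 days (n = 2) and 28 days (n = 2) after repair. All groups had the same strain, injury, conduit and gate, and there were no uninjured nerves and no other sorted cells among these libraries. The sources used here do not say how many mice went into each library.

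Axon guidance ligands steer growing axons and migrating cells by attracting or repelling them. Semaphorins signal mainly through plexins, with neuropilins as co-receptors for most class 3 members. Ephrins are membrane-bound ligands of the Eph receptor tyrosine kinases and can signal back into the cell that carries them. Slits bind Robo receptors, and netrins bind Unc5 receptors and Dcc. Several of these proteins, Sema4d and Sema4a among them, also act between immune cells.

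The libraries held 18.0 to 35.2 M fragments assigned to genes, and the 66 genes took 0.189% to 0.241% of them. Levels are given in FPKM, fragments per kilobase of transcript and per M fragments, which adjusts for gene length and so allows levels of different genes to be compared. The macrophage markers summed to 16417 to 22490 FPKM, with 9 of 10 listed in the table and none at 0. Most of this sum was Lyz2, at 10675.3 to 18376.5 FPKM, so it says little about the other markers. Cd14 was at 2635 to 3003 FPKM at day 5 and at 1433 and 1799 FPKM at day 28. Emr1 was at 365 to 470 FPKM at day 5 and at 195 and 209 FPKM at day 28. In the tests given below, these 2 of the 9 markers were lower at day 28 than at day 5, and none was higher. The summed neutrophil markers were 380 to 409 FPKM in the day 5 libraries, 629 and 633 in those of day 14, and 306 and 167 in those of day 28. The summed fibroblast markers (Col1a1, Col1a2, Col3a1 and others, 10 of 10 in the table, with Lum at 0 in day 5 replicates 2 and 3 and Dpt at 0 in day 5 replicate 2) ran from 32.2 to 78.7 FPKM at day 5, stood at 240.3 and 90.4 FPKM in day 14 replicates 1 and 2, and at 44.8 and 64.7 FPKM at day 28. The summed endothelial markers (10 of 10 in the table, with Tek and Cldn5 at 0 in day 5 replicates 2 and 3 and Emcn at 0 in 4 libraries) were 17.6 to 29.7 FPKM at day 5, 11.9 to 16.3 at day 14 and 7.64 to 12.1 at day 28. Replicates differed by more than counting noise at every time point, and no library was a copy of another.

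Semaphorins and plexins made up nearly all of the axon guidance expression, and Slits, Robos, netrins, Unc5 receptors and Eph receptors stayed low. With expression set at a mean of at least 1 FPKM at 1 or more time points, 12 of the 66 genes (18.2%) were expressed, against 10957 of all 23361 genes (46.9%). They were Plxnb2, Sema4d, Plxnd1, Plxna1, Sema4a, Plxnc1, Sema4b, Sema6b, Sema4c, Sema7a, Efnb1 and Efnb2, of which 8 encode ligands and 4 receptors. By family, 4 of 6 class 4 semaphorins, 1 of 4 class 6 semaphorins, the 1 class 7 semaphorin, 4 of 9 plexins and 2 of 8 ephrins were expressed. None of the 7 class 3 or 2 class 5 semaphorins, 14 Eph receptors, 3 Slits, 4 Robos, 4 netrins or 4 Unc5 genes reached that level.

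**Figure D1:**
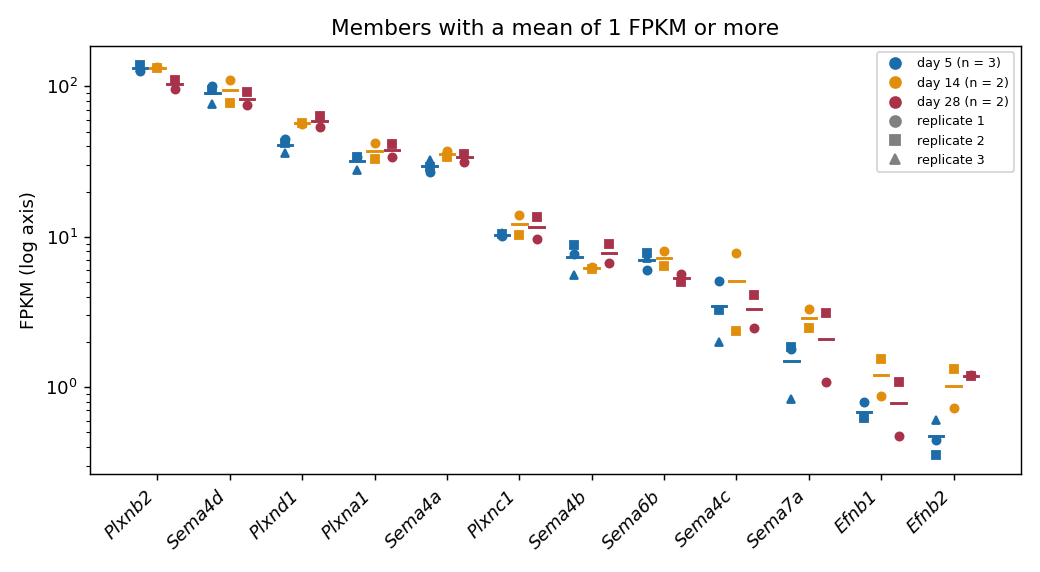
FPKM of the 12 expressed axon guidance genes in each of the 7 libraries, on a log axis, with points as libraries and bars as time point means. Plxnb2 sat between 95.9 and 138 FPKM and Efnb2 between 0.354 and 1.32 FPKM.

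Fragments were nonetheless found for most of the other genes. More than 3 fragments, the floor used for detection, were counted in at least 1 library for 57 of the 66 genes (86.4%) and in all 7 libraries for 29. The 9 genes never above the floor were Sema3a, Sema5a, Efna3, Epha3, Epha6, Ephb1, Robo3, Ntn5 and Unc5d. Ephb1, Robo3 and Unc5d had no fragment in any library, and a count of 0 allows up to 3 fragments, or 8.51e-06% to 1.66e-05% of a library, for counting error only. The highest value of a gene outside the 12 was 1.32 FPKM, for Epha2 in day 5 replicate 1.

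The 66 genes together summed to 374, 378 and 338 FPKM in day 5 replicates 1 to 3, to 430 and 371 FPKM in the day 14 libraries and to 324 and 389 FPKM in the day 28 libraries. Plxnb2 and Sema4d alone took 51.9% to 61.6% of this sum, and with Plxnd1, Plxna1 and Sema4a 88.0% to 90.1%. Plxnb2 is the receptor through which several class 4 semaphorins can signal. Sema4d is a class 4 semaphorin whose best known receptor is Plxnb1, which stayed between 0.00308 and 0.150 FPKM here. Among the other receptors in the partner list below, Cd72 was at 81.0 to 157 FPKM.

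**Figure D2:**
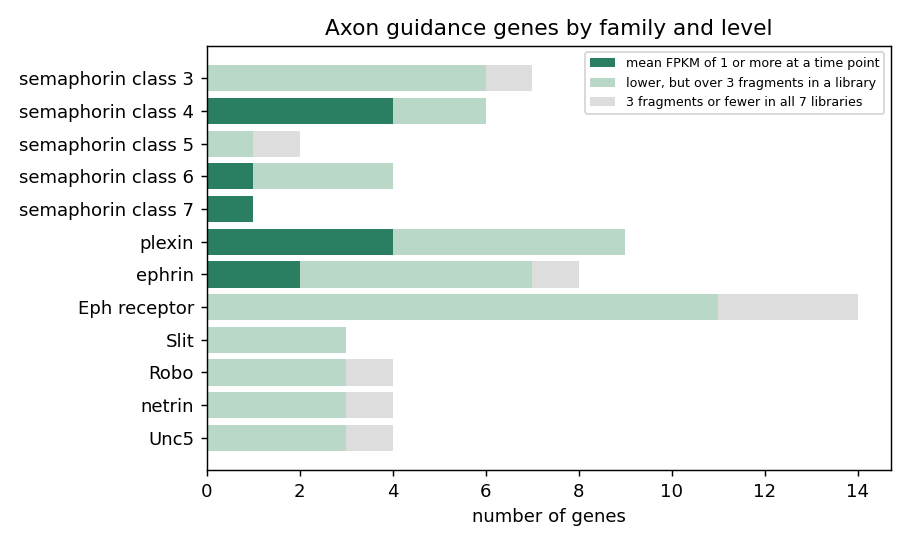
Number of genes by family with a mean of at least 1 FPKM at some time point, detected above 3 fragments only, or at or below 3 fragments in all 7 libraries. Plexins and class 4 semaphorins contributed 4 expressed genes each, and the 14 Eph receptors none.

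Among the ligands, Sema4d, a transmembrane semaphorin also shed from the cell surface, was the highest. Its level was 100.3, 95.0 and 75.9 FPKM at day 5, 110.5 and 77.7 FPKM at day 14, and 74.9 and 91.1 FPKM at day 28. The 3 time points overlapped, and the log2 fold change from day 5 to day 28 was -0.11 (SE 0.18, edgeR adjusted p = 0.718). Here and below, edgeR adjusted p is the quasi-likelihood test with Benjamini-Hochberg adjustment over the 12858 genes tested, and genes under 0.05 are called DE.

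Sema4a, a class 4 semaphorin studied in T cell responses, came next among the ligands. It stood at 26.9, 29.0 and 32.3 FPKM at day 5, at 36.9 and 33.7 FPKM at day 14, and at 31.6 and 35.8 FPKM at day 28. The day 5 libraries were the lowest on average, but day 28 overlapped day 5 and the log2 fold change was 0.22 (SE 0.12, edgeR adjusted p = 0.240).

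Sema4b was at 7.65, 8.81 and 5.55 FPKM at day 5, 6.31 and 6.15 FPKM at day 14, and 6.69 and 9.0 FPKM at day 28. Sema4c was at 5.09, 3.25 and 1.99 FPKM, then 7.75 and 2.37 FPKM, then 2.47 and 4.11 FPKM. For both genes the spread within a time point was as wide as that between them. Sema4c was highest in day 14 replicate 1, the library with the most fibroblast marker expression. That library was also the highest for Sema4d, Sema4a, Sema6b, Sema7a, Plxna1 and Plxnc1, and for the summed T cell markers (14.5 FPKM). The part of fibroblasts or other cells in the Sema4c level was not tested.

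Sema6b, a class 6 transmembrane semaphorin that binds class A plexins, was the only other semaphorin above 5 FPKM. Its values were 5.99, 7.85 and 7.18 FPKM at day 5, 8.03 and 6.43 FPKM at day 14, and 5.65 and 4.99 FPKM at day 28. Both day 28 libraries were below all day 5 libraries, with a log2 fold change of -0.38 that was not called (SE 0.16, edgeR adjusted p = 0.142).

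Sema7a, the GPI-anchored semaphorin that binds Plxnc1 and integrins, ranged from 0.831 to 3.31 FPKM. Efnb1, a B class ephrin, ranged from 0.474 to 1.53 FPKM. Neither was called in a comparison, and both had a wide spread between the libraries of day 28.

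Among the receptors, all 9 plexins were detected and 4 had a mean of at least 1 FPKM. Plxnb2 was the highest of all 66 genes. It measured 128, 138 and 132 FPKM at day 5, 134 and 132 FPKM at day 14, and 95.9 and 110.5 FPKM at day 28. Both day 28 libraries lay below the other 5, with a log2 fold change against day 5 of -0.35 (SE 0.12). This was not called by edgeR (adjusted p = 0.0761), whereas DESeq2 called it lower (adjusted p = 0.0248), as did limma on log2(FPKM + 1) (adjusted p = 0.0448) and on log2(FPKM + 0.1) (adjusted p = 0.0462). The adjusted p over all 16 alternatives ran from 0.0248 to 0.307.

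Plxna1, a receptor used by class 3 semaphorins together with neuropilins, was at 33.9, 33.7 and 27.6 FPKM at day 5, at 41.8 and 32.7 FPKM at day 14, and at 34.1 and 41.1 FPKM at day 28. Plxnc1, the receptor of Sema7a, was at 10.1, 10.4 and 10.6 FPKM, then 14.0 and 10.3 FPKM, then 9.72 and 13.5 FPKM. Neither gene was called, and the log2 fold changes from day 5 to day 28 were 0.26 (SE 0.15, edgeR adjusted p = 0.288) for Plxna1 and 0.17 (SE 0.16, edgeR adjusted p = 0.508) for Plxnc1.

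The other plexins stayed near or below 1 FPKM. Plxna3 ranged from 0.483 to 1.0 FPKM, Plxnb3 from 0.464 to 1.06 FPKM and Plxna2 from 0.233 to 0.497 FPKM, and none of these 3 was called.

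The class 3 semaphorins, the secreted ligands of neuropilin and plexin complexes, summed to 0.511 to 1.48 FPKM over their 7 genes. Sema3c was the highest of them, with 0.288 to 0.656 FPKM at day 5 and 0.163 and 0.371 FPKM at day 28, and it was not called (log2 fold change -1.02, SE 0.54, edgeR adjusted p = 0.229). The class 5 semaphorins summed to at most 0.0831 FPKM. Class 4 semaphorins, by contrast, summed to 116 to 162 FPKM and the plexins to 195 to 249 FPKM.

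The remaining families were low as wholes. Their sums ran from 1.41 to 3.31 FPKM over 8 ephrins, 1.37 to 2.49 FPKM over 14 Eph receptors, 0.240 to 1.06 FPKM over 3 Slits, 0.00659 to 0.208 FPKM over 4 Robos, 0.179 to 0.493 FPKM over 4 netrins, and 0.305 to 0.846 FPKM over 4 Unc5 genes. No Robo gene exceeded 24 fragments in a library. Epha2 was at 1.32, 0.664 and 1.0 FPKM at day 5, 0.474 and 0.275 FPKM at day 14, and 0.534 and 1.02 FPKM at day 28. Both day 14 libraries lay below all day 5 libraries, with a log2 fold change of -1.42 that was not called (SE 0.46, edgeR adjusted p = 0.104). Epha1, a further Eph receptor, ranged from 0.321 to 0.580 FPKM, and Unc5b from 0.189 to 0.595 FPKM. Slit3 was at 0.411, 0.203 and 0.0571 FPKM at day 5, 0.979 and 0.418 FPKM at day 14, and 0.280 and 0.238 FPKM at day 28. Its highest library was day 14 replicate 1, as for several members above, and Slit3 was not called. Ntn1, the only netrin that passed the expression filter, stayed between 0.0701 and 0.208 FPKM.

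The question of whether these genes changed between time points was asked of the 37 that passed the expression filter. The other 29 were too low to test, and although 20 of them had more than 3 fragments in some library, none exceeded 0.379 FPKM or 29 fragments.

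From day 5 to day 14, 2 of the 37 genes were called DE, Plxna4 and Sema6d, both higher. That is 5.41% of the genes tested, against 4.78% of all 12858 genes in either direction, 2.84% higher and 1.94% lower. At an unadjusted p under 0.05, 9 of the 37 (24.3%) passed, against 24% of all genes. The median log2 fold change was 0.24 over the 37 genes and 0.03 over all genes.

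From day 14 to day 28 none of the 37 genes was called by edgeR, where 0.0622% of all genes were. The lowest edgeR adjusted p was 0.297, and 3 of the 37 (8.11%) had an unadjusted p under 0.05, against 12.2% of all genes. DESeq2 and limma also called 0.

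From day 5 to day 28, 5 of the 37 genes were called DE, and all 5 were higher: Plxna4, Sema6d, Plxnd1, Efnb2 and Epha4. The share was 13.5%, against 15.2% of all genes (7.74% higher and 7.51% lower), so it was near the background. At an unadjusted p under 0.05, 9 of the 37 (24.3%) passed, against 31.5% of all genes. The median log2 fold change was 0.19 over the 37 genes and 0.03 over all genes. It was positive for 23 of the 37 and for 6842 of all 12858 genes. Outside the calls, Plxnb3 had a log2 fold change of -0.96 (SE 0.33, edgeR adjusted p = 0.0772) and Plxnb1 one of -2.36 (SE 1.03, edgeR adjusted p = 0.155). Plxnb1 rested on 1 to 26 fragments per library. Other uncalled genes lay the other way, among them Epha10 (2.29, edgeR adjusted p = 0.245), Ephb6 (2.11, 0.242) and Ephb4 (1.73, 0.200). These too had at most 30 fragments in a library. Both genes called at day 14 were also called at day 28, but the 2 comparisons share the day 5 libraries.

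**Figure D3:**
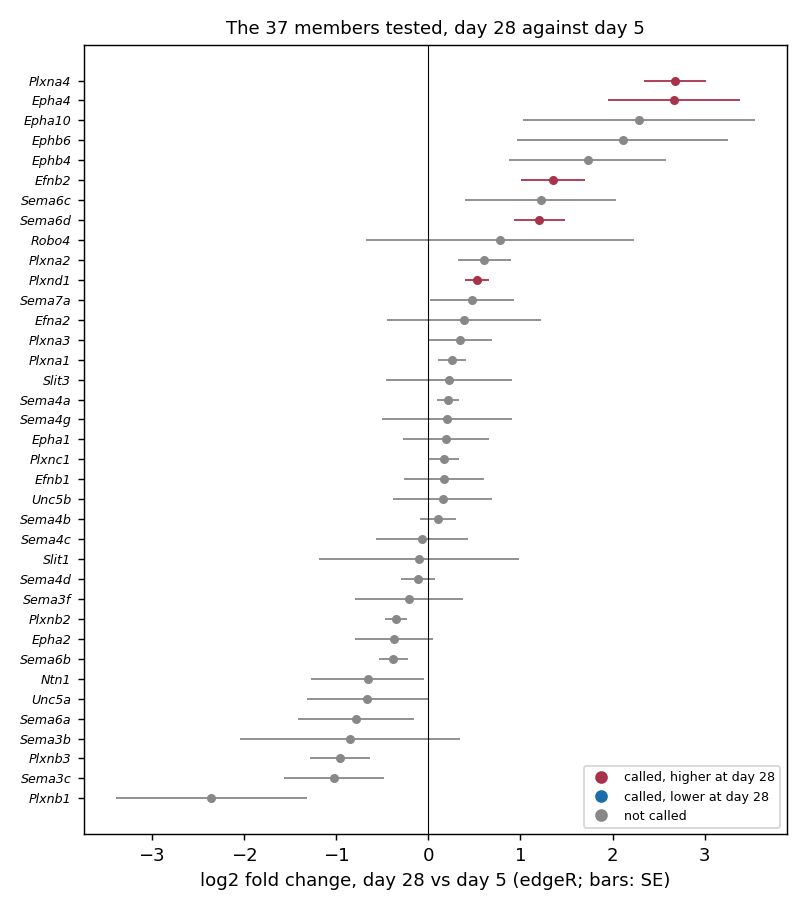
Log2 fold changes of the 37 axon guidance genes tested, with standard errors as bars, between days 5 and 28, with genes called DE (edgeR adjusted p under 0.05) in colour and the others in grey. The 5 genes called between days 5 and 28 lie at 0.52 to 2.68.

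The 5 genes encode 3 receptors, 1 semaphorin and 1 ephrin. Of these, 3 (Plxna4, Sema6d and Epha4) stayed under 1 FPKM in every library, and their calls rest on 4 to 249 fragments per library. Leaving out 1 library moved the count of 5 to 2, 1 and 2 without day 5 replicates 1, 2 and 3, and to 1 without either day 28 library, and to 6 without either day 14 library. The count of 2 at day 14 moved to 0 without any 1 of the day 5 libraries, to 3 without day 14 replicate 1, and to 1 without day 14 replicate 2 or either day 28 library. The shares of all genes called with 1 library left out are not given here. These shifts in count can therefore not be read as particular to the axon guidance genes. Markers of other cell types moved between days 5 and 28, some higher and some lower. The summed pericyte markers (5 of 5 in the table, with Rgs5 at 0 in day 5 replicate 3) were 2.13 to 3.12 FPKM at day 5. They were 4.08 and 5.40 FPKM at day 28. Of the 5 tested, only 1 was called, Cspg4, which was higher (log2 fold change 2.59, edgeR adjusted p = 0.000541). The summed dendritic cell markers (6 of 6 in the table, with Clec9a at 0 in day 14 replicate 2) were 8.18 to 13 FPKM at day 5. They were 19.8 and 30.4 FPKM at day 28. Of the 6 tested, only 1 was called, Ccr7, which was higher (1.43, edgeR adjusted p = 0.0400). Of the 10 fibroblast markers tested, only 1 was called, Postn, which was higher (1.99, edgeR adjusted p = 0.0185). The fibroblast sums at day 28 lay within the day 5 range. Of 9 macrophage markers tested, Cd14 (-0.76, edgeR adjusted p = 0.0145) and Emr1 (-1.01, edgeR adjusted p = 0.00650) were called lower, and none higher. The summed neutrophil markers were lower at day 28, as given above, with 3 of 7 tested called lower and none higher. The summed Schwann cell markers, mostly Pmp22, were 243 to 295 FPKM at day 5 and 154 and 157 FPKM at day 28. Of 3 tested, Pmp22 was called lower (-0.92, edgeR adjusted p = 0.0314) and Mbp higher (0.75, edgeR adjusted p = 0.0296). The summed T cell markers were 2.55 to 4.0 FPKM at day 5 and 4.81 and 7.25 FPKM at day 28. Of 2 tested, 1 was called higher. Eosinophil markers summed to 1.79 to 2.23 FPKM, then 3.40 and 3.38 FPKM, with 1 of 2 tested called higher. Red cell and platelet markers summed to 27.2 to 41.4 FPKM, then 0.253 and 10.9 FPKM, with 0 of 2 tested called. From day 5 to day 14, 2 of 10 fibroblast, 1 of 5 pericyte and 1 of 2 T cell markers tested were called higher. In that comparison 1 of 9 macrophage and 1 of 7 neutrophil markers tested were called lower. The part of other cell types in the levels of the 5 genes, at day 14 or day 28, was not tested. In sorted cells, fewer cells that express a gene and less RNA per cell cannot be told apart.

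Plxna4, a class A plexin, rose in both comparisons with day 5. Its fragments numbered 40, 20 and 22 at day 5, 96 and 79 at day 14, and 249 and 175 at day 28. This gave 0.133, 0.0784 and 0.0810 FPKM, then 0.428 and 0.284 FPKM, then 0.520 and 0.734 FPKM, with no overlap between any 2 time points. The means were 0.0973 ± 0.0305 FPKM (SD, n = 3), 0.356 ± 0.102 FPKM (n = 2) and 0.627 ± 0.151 FPKM (n = 2), 6.44-fold higher at the last time point than at the first. The log2 fold change was 1.86 (SE 0.34, edgeR adjusted p = 0.0234) at day 14 and 2.68 (SE 0.34, edgeR adjusted p = 0.00206) at day 28. The day 28 call held without any 1 library, with adjusted p from 0.000198 to 0.0210 and log2 fold changes from 2.41 to 2.98. The day 14 call was lost without day 5 replicate 1 (adjusted p = 0.0557), replicate 2 (0.0841) or replicate 3 (0.0852), within a range of 0.000239 to 0.131 over all alternatives. The gene lies at chr6:32144268-32588192 on the minus strand of GRCm38, and 3 antisense genes, Plxna4os1, Plxna4os2 and Plxna4os3, lie on the opposite strand. Whether strand was used in counting was not given.

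Sema6d, a class 6 semaphorin that binds Plxna1, was called in the same comparisons. It had 48, 38 and 49 fragments at day 5, 79 and 106 at day 14, and 148 and 105 at day 28, or 0.315, 0.304 and 0.358 FPKM, then 0.699 and 0.756 FPKM, then 0.630 and 0.898 FPKM. The day 14 and day 28 libraries overlapped each other and were all above day 5, at 2.34-fold the day 5 mean for day 28. The log2 fold change was 1.18 (SE 0.28, edgeR adjusted p = 0.0481) at day 14 and 1.20 (SE 0.28, edgeR adjusted p = 0.0217) at day 28. The day 14 call was lost on leaving out any 1 of the 7 libraries (adjusted p 0.0503 to 0.184). The day 28 call was lost without day 5 replicates 1, 2 or 3 (0.0743, 0.0737 and 0.0519) or day 28 replicates 1 or 2 (0.0524 and 0.111), within a range of 0.00842 to 0.111 over all alternatives. The day 28 call was also lost with limma on log2(FPKM + 0.1) (adjusted p = 0.05002) and with edgeR and a replicate block (adjusted p = 0.0771). The gene lies at chr2:124089969-124667770 on the plus strand, and both annotated genes on the opposite strand, 4930517E11Rik and 4930583P06Rik, were at 0 FPKM in every library.

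Plxnd1, the receptor of Sema3e, known for its role in blood vessel patterning, was the only called gene with a mean above 5 FPKM. It stood at 44.5, 42.3 and 36.3 FPKM at day 5, at 56.6 and 56.8 FPKM at day 14, and at 53.5 and 63.4 FPKM at day 28. All later libraries were above all day 5 libraries, with means of 41.0 ± 4.25 FPKM (SD, n = 3), 56.7 ± 0.142 FPKM (n = 2) and 58.5 ± 6.95 FPKM (n = 2). Against day 5, day 14 differed by 0.48 on the log2 scale (SE 0.13, edgeR adjusted p = 0.0686), and day 28 by 0.52 (SE 0.13, edgeR adjusted p = 0.0277). The day 28 call was lost without day 5 replicates 1, 2 or 3 (0.0562, 0.0808 and 0.0962) or day 28 replicates 1 or 2 (0.0611 and 0.133), within a range of 0.00471 to 0.133 over all alternatives. The gene is at chr6:115954811-115995005 on the minus strand.

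Efnb2, a transmembrane B class ephrin found on arterial endothelium and other cells, had 45, 30 and 55 fragments at day 5, 54 and 122 at day 14, and 191 and 94 at day 28. Its FPKM was 0.448, 0.354 and 0.609, then 0.724 and 1.32, then 1.20 and 1.19. The day 28 libraries were above all day 5 libraries, at 1.19 against 0.471 FPKM on average, or 2.53-fold. The log2 fold change was 1.35 (SE 0.35, edgeR adjusted p = 0.0309). The call was lost without day 5 replicates 1 or 2 (0.0992 and 0.0976) or day 28 replicates 1 or 2 (0.148 and 0.0987), within a range of 0.00766 to 0.148 over all alternatives. Among the 9 endothelial markers tested, 2 were called higher at day 28 than at day 5, Vwf (log2 fold change 2.07, edgeR adjusted p = 0.0210) and Tek (4.63, edgeR adjusted p = 0.0208), and 2 lower, Kdr (-3.02, edgeR adjusted p = 0.00290) and Pecam1 (-1.80, edgeR adjusted p = 0.0145). Kdr and Pecam1 made up most of the summed marker level at day 5. Tek was near the floor, with 2, 0 and 0 fragments at day 5 and 46 and 9 at day 28. The part of endothelial RNA in the Efnb2 level was not tested. The gene is at chr8:8617434-8661242 on the minus strand.

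Epha4, a receptor for A and B class ephrins, had 14, 4 and 4 fragments at day 5, 9 and 50 at day 14, and 81 and 39 at day 28. Its FPKM was 0.0938, 0.0317 and 0.0298, then 0.0811 and 0.363, then 0.342 and 0.331. Day 14 replicate 1 was within the day 5 range, whereas the other day 14 library and both day 28 libraries were above it. Day 28 differed from day 5 by 2.67 on the log2 scale (SE 0.72, edgeR adjusted p = 0.0363), with the mean FPKM 6.50-fold higher. The call was lost without day 5 replicates 2 or 3 (0.112 and 0.105) or day 28 replicates 1 or 2 (0.159 and 0.101), within a range of 0.00496 to 0.159 over all alternatives. A change of test removed the Epha4 call too. It was lost with limma on log2(FPKM + 1) (adjusted p = 0.0825) and on log2(FPKM + 0.1) (adjusted p = 0.0650). With edgeR and a replicate block it was also lost (adjusted p = 0.152). The gene is at chr1:77367185-77515088 on the minus strand.

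**Figure D4:**
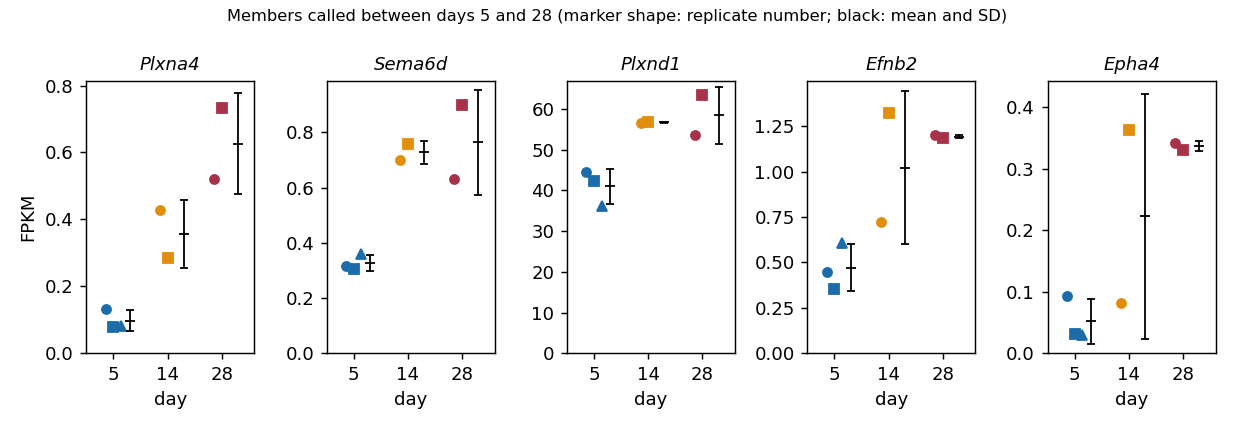
FPKM of the 5 genes called DE between days 5 and 28 in each library, one panel per gene, with points as libraries and black bars as mean and SD, on axes that start at 0. In every panel both day 28 libraries lie above all 3 day 5 libraries. The genes were picked by the test between these same libraries, so this separation adds no support to the calls. Uncalled genes such as Plxna1 and Plxna2 showed it too.

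The windows of 250 bases before the annotated starts of the called genes are shown to place these changes on the genome, since the 5 genes moved in the same direction. They are RefSeq sequences of GRCm38.p6, read 5′ to 3′ on the gene's strand, and 4 of the 5 called genes had an entry, with Sema6d having 2 starts. The motifs searched, on both strands, were GAGGAAGT (PU.1), TGACTCA (AP-1) and ACGTG (HIF core). Capitals mark the motif letters. A GAGGAAGT match was in 2.44% of 32851 windows of this length, a TGACTCA match in 4.46%, and an ACGTG match in 16.6%.

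Epha4 chr1:77515089-77515338, minus strand: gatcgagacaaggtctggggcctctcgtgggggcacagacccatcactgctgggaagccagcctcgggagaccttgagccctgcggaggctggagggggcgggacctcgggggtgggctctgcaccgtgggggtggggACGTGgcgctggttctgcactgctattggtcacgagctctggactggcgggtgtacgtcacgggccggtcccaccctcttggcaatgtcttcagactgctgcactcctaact

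Sema6d chr2:124089719-124089968, plus strand: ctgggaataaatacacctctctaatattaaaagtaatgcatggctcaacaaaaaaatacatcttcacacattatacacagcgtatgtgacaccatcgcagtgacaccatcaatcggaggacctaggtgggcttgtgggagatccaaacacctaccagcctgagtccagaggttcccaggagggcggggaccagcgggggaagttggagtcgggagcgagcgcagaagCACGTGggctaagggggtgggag

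Sema6d chr2:124653331-124653580, plus strand: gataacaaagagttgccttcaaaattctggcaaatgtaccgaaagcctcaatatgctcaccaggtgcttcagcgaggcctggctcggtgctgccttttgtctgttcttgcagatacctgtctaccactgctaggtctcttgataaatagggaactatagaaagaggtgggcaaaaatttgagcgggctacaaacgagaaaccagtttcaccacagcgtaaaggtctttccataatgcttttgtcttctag

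Plxnd1 chr6:115995006-115995255, minus strand: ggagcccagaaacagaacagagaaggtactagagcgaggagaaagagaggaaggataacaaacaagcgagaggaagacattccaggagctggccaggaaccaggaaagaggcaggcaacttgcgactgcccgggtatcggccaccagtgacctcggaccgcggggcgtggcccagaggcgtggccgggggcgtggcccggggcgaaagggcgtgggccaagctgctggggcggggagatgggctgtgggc

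Efnb2 chr8:8661243-8661492, minus strand: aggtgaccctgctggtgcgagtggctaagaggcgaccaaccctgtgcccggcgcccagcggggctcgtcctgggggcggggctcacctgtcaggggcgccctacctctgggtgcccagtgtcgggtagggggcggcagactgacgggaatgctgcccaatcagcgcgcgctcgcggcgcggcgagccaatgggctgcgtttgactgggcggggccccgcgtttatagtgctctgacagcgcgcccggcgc

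ACGTG was found at -112 from the start of Epha4 and at the upstream start of Sema6d, where it overlaps its own reverse complement at -22 and -23. The other 3 windows held none of the 3 motifs. A match is a string of letters, and no match says only that these letters are not in the window.

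The pathway partners, 69 listed genes for co-receptors, other ligands and signal transducers, gave a view of the machinery that reads these ligands. All 69 were in the table, 50 were expressed and 57 were tested. The neuropilins, co-receptors of class 3 semaphorins, were expressed at every time point. Nrp1 was at 46.3, 50.7 and 56.9 FPKM at day 5, 38.6 and 40.6 FPKM at day 14, and 49.7 and 49.8 FPKM at day 28. Nrp2 was at 77.0, 73.4 and 56.4 FPKM, then 68.9 and 60.6 FPKM, then 65.4 and 72.3 FPKM. Their log2 fold changes from day 5 to day 28 were -0.03 (edgeR adjusted p = 0.892) and -0.01 (edgeR adjusted p = 0.970). Dcc, the netrin receptor, never exceeded 0.0240 FPKM and was not tested.

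From day 5 to day 14, 6 of 57 partners (10.5%) were called, against 4.78% of all genes: Gpc1, Mical1 and Mical2 higher, and Flrt3, Itga1 and Vav3 lower. From day 14 to day 28 edgeR called 0 of 57 and DESeq2 5. From day 5 to day 28, 16 of 57 (28.1%) were called, against 15.2% of all genes, 10 higher (17.5%) and 6 lower (10.5%). The higher genes were Gpc1, Mical2, Mical1, Met, Pak1, Srgap3, Limk1, Fyn, Rasa1 and Nck1, and the lower genes Kdr, Neo1, Itga1, Vav3, Srgap2 and Rras. The partner list was chosen with earlier results of these data known, so its shares above those of all genes cannot be read as a result about the pathway.

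Gpc1, a heparan sulfate proteoglycan that binds Slits, was higher than at day 5 (8.85, 8.23 and 8.03 FPKM) in the libraries of day 14 (16.2 and 49.1 FPKM) and day 28 (67.9 and 71.5 FPKM), with a log2 fold change of 3.07 at day 28 (SE 0.35, edgeR adjusted p = 0.00155). No day 14 or day 28 library overlapped day 5. Mical2, a monooxygenase that acts on actin downstream of plexins, was at 0.955, 1.46 and 1.29 FPKM at day 5 and at 8.07 and 8.46 FPKM at day 28 (2.74, edgeR adjusted p = 0.000541). Mical1, of the same family, was at 3.66, 3.76 and 2.56 FPKM at day 5, then 6.36 and 10.2 FPKM, then 11.0 and 11.6 FPKM (1.79, edgeR adjusted p = 0.00191). Kdr, a VEGF receptor and an endothelial marker in the list above, fell from 13, 8.50 and 11.3 FPKM in the day 5 libraries to 1.39 and 1.27 FPKM at day 28 (-3.02, edgeR adjusted p = 0.00290). Neo1, a receptor of netrins and repulsive guidance molecules, fell from 0.950 to 1.44 FPKM to 0.324 and 0.373 FPKM (-1.84, edgeR adjusted p = 0.00796). The partners with a mean of at least 100 FPKM at some time point were Itgb1, Cd72, Cfl1, Rhoa, Rac1, Rac2, Cdc42 and Rap1a, and none of them was called. The count of 6 partners called from day 5 to day 14 moved to 1, 2 and 1 without day 5 replicates 1, 2 and 3, to 11 without day 14 replicate 1 and to 3 without day 14 replicate 2. The count of 16 called from day 5 to day 28 moved to 8 and 10 without day 28 replicates 1 and 2, and that of 0 from day 14 to day 28 moved to 4 without day 14 replicate 2.

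**Figure D5:**
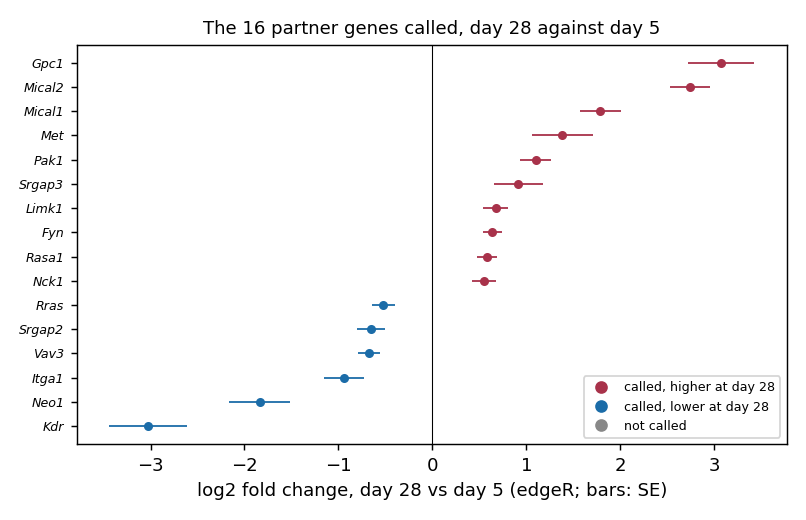
Log2 fold changes with standard errors of the partner genes called DE between days 5 and 28 (edgeR adjusted p under 0.05), ordered by size. Gpc1 at 3.07 and Kdr at -3.02 mark the ends.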

How the data were processed

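RNASeq was performed on macrophages sorted at days 5 (n = 3), 14 (n = 2) and 28 (n = 2). For days 14 and 28 these are fewer samples per group than the study's legend states, and any others were not analysed here. Single-end reads were trimmed by the authors (cutadapt 1.8) and mapped to mm10 (TopHat2 2.0.13), and they quantified genes with Cuffdiff 2.2.1, versions per the submitters' processing notes. The authors deposited the expected counts (raw fragments) per gene and library. The deposited scaled signal is the fragments after 1 factor per library. The FPKM, also deposited, adjust for length and depth. How multi-mapped reads and strand were handled is not given in the sources used here, so paralogs and overlapping genes are uncertain. The quantification status was a failure for 4 genes, none of them an axon guidance gene. All columns of values were matched to a sample.

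After rounding, the expected counts went into edgeR 4.0.16 under R 4.3.3 with TMM scaling, filterByExpr within time points and the quasi-likelihood test, adjusted by Benjamini-Hochberg over 12858 genes, with all 7 libraries in 1 fit and time point as the only factor. The cuffdiff test of the study was not used. Alternatives were DESeq2 1.42.0, limma 3.58.1 on log2(FPKM + 1) and log2(FPKM + 0.1), other library scaling, no filter, fits on 2 time points, a replicate block, an adjusted p under 0.01, other levels for expression and detection, and leaving out each library. Fits were tested on simulated data. Coordinates are GENCODE genes on GRCm38. Python 3.11.15, pandas 2.3.3, numpy 2.4.6 and matplotlib 3.10.9 were used for summaries and plots. The genes and lists were chosen with earlier results of these data known. Genes were named with values when called or with a mean of at least 5 FPKM, other members by range, and partners when called or with a mean of at least 100 FPKM, with Nrp1 and Nrp2 always. Plxna2, Plxna3, Plxnb1, Plxnb3, Sema3c, Slit3, Epha1, Epha2, Epha10, Ephb4, Ephb6, Unc5b, Ntn1, Sema7a and Efnb1 and Dcc were not named by this rule, and their choice followed a look at their values. Replicates are independent biological samples per the labels' design text, and p-values measure the spread between them. Intervals and floors cover counting error only.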

Additional observations from a re-analysis of the deposited data

How the results depend on the processing

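All called axon guidance genes kept their direction under the 16 alternatives tried for each. Which of the genes given with values in every library were called from day 5 to day 28 depended on the test. DESeq2 and both limma fits also called Plxnb2, as lower. Both limma fits lost Epha4, and limma on log2(FPKM + 0.1) lost Sema6d as well. The count of genes called from day 5 to day 14 was 2, and was 4 with DESeq2, 1 with RLE size factors, 6 without the expression filter, and 0 with limma on log2(FPKM + 1), with limma on log2(FPKM + 0.1), on the 2 time points alone and at an adjusted p under 0.01, and it ran from 0 to 3 on leaving out 1 library. From day 14 to day 28 it was 0 under every alternative. From day 5 to day 28 it was 5, and was 1 at an adjusted p under 0.01, and ran from 1 to 6 on leaving out 1 library. For the partners, the count from day 5 to day 14 was 6, and was 10 without the filter and 1 to 11 without 1 library. From day 14 to day 28 it was 0, and was 5 with DESeq2, 6 without the filter and 0 to 4 without 1 library. From day 5 to day 28 it was 16 and ran from 8 to 22 without 1 library. The count of expressed genes was 12, and was 19 at a mean of at least 0.5 FPKM, and 12 to 14 without 1 library. Of the detected genes, 47 of 57 had more than 10 fragments in a library. The shares of all genes called under the same alternatives are not given here, so the shifts in these counts cannot be read as particular to these genes. The cause of these shifts was not tested. The log2 fold change from day 5 to day 28 was recomputed for the 13 genes given with values in every library, and for 4 of them it crossed 0, with no call, on leaving out 1 library. Plxnc1 ran from -0.082 (without day 28 replicate 2) to 0.39, Sema4b from -0.12 (without day 28 replicate 2, and -0.054 without day 5 replicate 3) to 0.31, Sema4c from -0.47 to 0.33 (without day 5 replicate 1, and 0.26 without day 28 replicate 1), and Sema4d from -0.26 to 0.023 (without day 28 replicate 1).

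With the replicate number as a block, the members called were 0 at day 14 and 1 (Plxna4) at day 28, each against day 5, the partners called were 0, 0 and 10 in the 3 comparisons, and Sema4b had a log2 fold change of -0.065. Libraries of different days share only a number: their deviations correlated at -0.0538 to 0.175 over 7613 genes, so the block is no pairing of mice. Leaving out a library of day 14 or 28 left that day with 1 library, which was taken to vary like the others. Genes under about 1 FPKM rest on few fragments, and differences among them may be missed at this depth.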
